A study of Mus musculus with 4 samples.

Results

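The library from the Cre-treated Tut1f/f culture (Tut1 KO) was compared with the library from the Cre-treated p53f/f culture (Trp53 KO), 2 of the 4 libraries of the series. Genes were compared where they are annotated as protein-coding and had at least 10 TPM (transcripts per 1000000 transcripts) in at least 1 of the 2 libraries, which left 8159 of 21894 protein-coding genes in a table of 55487 gene IDs. Each value is the Tut1 KO minus the Trp53 KO library on the log2(TPM + 1) scale, so that a positive value is higher in the Tut1 KO library and 1 is close to a doubling. All cultures were primary mouse neural stem cells, grown as neurospheres with growth factors from embryonic neocortex. Both cultures compared here received lipid nanoparticles (LNP) that carry mRNA for Cre recombinase, the enzyme that cuts out DNA between loxP sites (f, floxed), for 3 days by the series text. Each of them thus carries one floxed gene and keeps the other gene intact. The remaining libraries were a Tut1f/f culture given empty LNP (control) and a Cre-LNP-treated Tut1f/f;p53f/f culture (double KO). The comparison asks how loss of Tut1 with p53 present differs from loss of p53 with Tut1 present when the Cre treatment is the same. There was 1 library a side, so differences have no spread between cultures to be measured against, and no test or error is given. The methods name the floxed Trp53 stock B6.129P2-Trp53tm1Brn/J, whereas a legend speaks of CRISPR/Cas9 editing for that allele, so its origin is not settled here. The strain of the Tut1f/f mice and the number of embryos behind each culture were not given in the sources used here.

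TUT1 is an enzyme that tails the 3′ end of U6 snRNA with uridines. U6 is the small nuclear RNA at the catalytic core of the spliceosome. p53, the product of Trp53, is a transcription factor that is stabilised by stress and switches on genes for cell cycle arrest, apoptosis and DNA repair. In neural progenitors of the embryonic cortex, p53 activation is a common route to cell loss. The integrated stress response is a separate programme in which the factor ATF4 raises genes of amino acid uptake and synthesis.

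Trp53 (ENSMUSG00000059552, plus strand of chromosome 11 from 69580359 to 69591873, GRCm38) had 100.4 TPM in Tut1 KO, 39.7 TPM in Trp53 KO, 119.9 TPM in control and 41.9 TPM in double KO cells. The Trp53 KO library was thus low together with the double KO, as their labels state, and the difference was 1.32. Tut1 (ENSMUSG00000071645, plus strand of chromosome 19 from 8953847 to 8966210) had 29.8 TPM in Tut1 KO, 12.5 TPM in Trp53 KO, 12.2 TPM in control and 13.7 TPM in double KO cells. It was highest where the label says Tut1 KO, with a difference of 1.19 against that label. The study reads the deletion from exon 2, and loss of 1 exon need not lower a gene-level TPM. Directions given for Tut1 KO therefore rest on its label.

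The compared libraries were alike in several respects. TPM sums to about 1000000 by its definition, so that total shows no likeness. The number of gene IDs above 0 was 23145 in the Tut1 KO and 23080 in the Trp53 KO library. TPM keeps no depth, so the depth of each library is unknown and limits the lowest values most. Xist, the RNA that coats the inactive X chromosome, was at 188 TPM (Tut1 KO) and 204 TPM (Trp53 KO), and Ddx3y, Eif2s3y, Kdm5d and Uty on the Y chromosome were listed at 0 in both. In the control and the double KO library Xist had 0.01 TPM or less and the Y-linked genes were present, so values in those libraries carry this difference too. Neural stem cell markers were abundant in both, with 8095 TPM against 7902 TPM for Fabp7, a fatty acid carrier of radial glia, and 293 TPM against 324 TPM for Sox2, a stem cell transcription factor, in the Tut1 KO and Trp53 KO library. Emx1, a marker of the neocortical lineage, was listed at 0 TPM in Tut1 KO and 0.07 TPM in Trp53 KO cells, whereas Emx2 had 20.5 TPM against 26.7 TPM. The 10 microglial markers summed to at most 0.75 TPM in any library, with 7 of the 10 listed at 0 in all, and the 15 endothelial, mural and fibroblast markers summed to at most 5.70 TPM.

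Most genes lay close to equality. The median difference over the 8159 genes was -0.05 with a median absolute deviation of 0.21, and 85.8% lay within 0.5 of 0. A difference of at least 1 was reached by 298 genes (3.65%), 138 higher (1.69%) and 160 lower (1.96%) in the Tut1 KO library. At 2 or beyond, 35 genes were higher and 36 lower, over a range from -6.62 to 7.79. The genes nearest to the threshold on the higher side were Mamdc2 (1.001) and Lrif1 (1.01), just past it, and Lrrc8a (0.997) and Mrpl11 (0.996), just short of it. On the lower side Rpl17 (-1.01) and Pagr1a (-1.01) were just past it, and Mindy2 (-0.998) and Rpl29 (-0.998) just short of it.

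**Figure D1:**
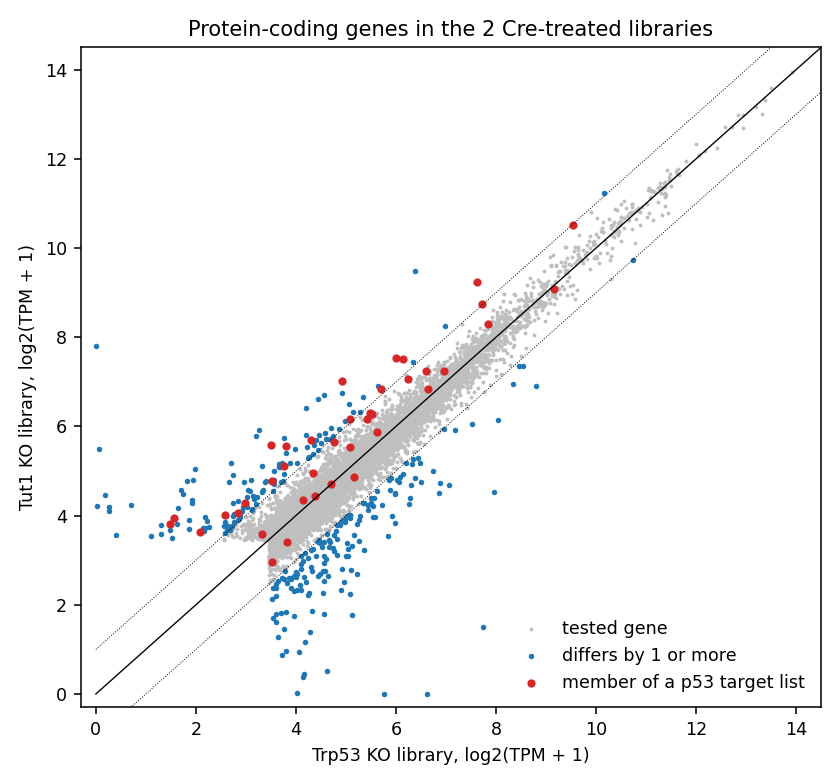
Each point is 1 of the 8159 protein-coding genes, at its log2(TPM + 1) in the Trp53 KO (x axis) and the Tut1 KO library (y axis), with equality as a solid line and a difference of 1 as dotted lines. The 298 genes at or past 1 are blue, and the 39 tested p53 target genes, in red, lie mostly above the line of equality.

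The differences followed the base composition of the transcripts. Across genes, which are not independent replicates, Spearman's rho between the difference and the GC content of the longest annotated transcript was 0.31 over 8154 genes, and -0.21 with its length. The median difference went from -0.23 in the decile of genes with the lowest GC content to 0.10 in the decile with the highest. Of the genes in the lowest decile 30 were past the threshold on the lower side and 14 on the higher side, and in the highest decile 12 and 23. After a quadratic fit on GC content was subtracted, rho was 0.02, and 144 genes (1.77%) were higher and 151 (1.85%) lower. Of the original genes past the threshold, 130 higher and 145 lower ones stayed past it. The fit also centres the differences, since 43.4% of genes were above 0 before it and 50.3% after it. Values after this fit are given below wherever they differ from the plain values in a way that matters for a gene or list.

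**Figure D2:**
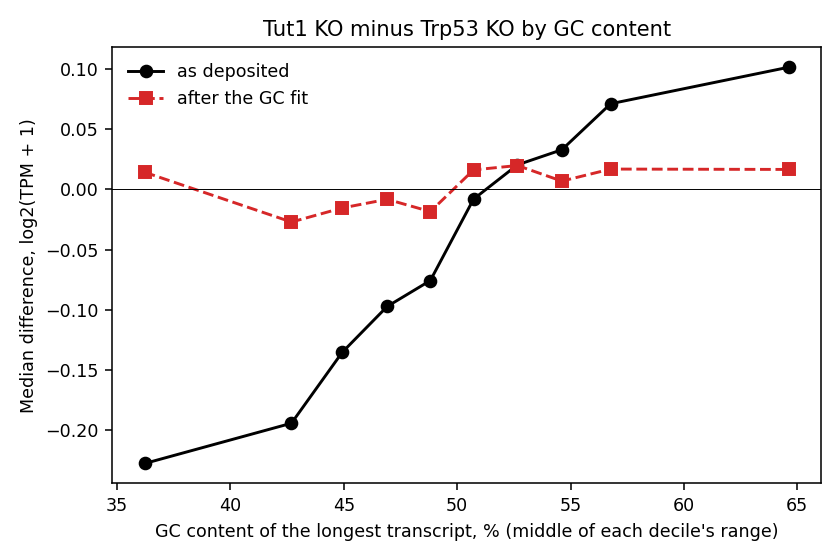
Median difference in log2(TPM + 1), Tut1 KO minus Trp53 KO, in 10 equal groups of genes ordered by GC content (x axis, per cent, middle of each group's range). The plain medians (black) climb from -0.23 to 0.10, and the medians after the GC fit (red) stay between -0.03 and 0.02.

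Of 39 tested targets of p53, 18 were higher by at least 1 and 0 lower in the Tut1 KO library, where Trp53 is intact, and their 3 lists had the medians furthest from 0 of all lists. Of the 14 tested genes that act in cell cycle arrest and its feedback, 5 were higher by at least 1 and 0 lower. All 14 lay above 0, beside 43.4% of all genes. Their median was 0.79, beside -0.05 for all genes. Of the 14 tested apoptosis genes, 10 were higher by at least 1 and 0 lower, with a median of 1.24. Of the 11 tested targets in DNA repair, metabolism and other roles, 3 were higher and 0 lower, with a median of 0.61. These counts stand against 1.69% of all tested genes on the higher side. A gene that reached 10 TPM in only 1 of the 2 libraries entered through the library where it is high and had to differ, which holds for 5 of the 10 apoptosis genes past 1 (Fas, Perp, Pmaip1, Dapk1 and Tnfrsf10b), for 1 of the 5 arrest genes and for 78 of the 138 higher genes in all. With at least 10 TPM in both libraries, 5 of 8 apoptosis, 4 of 12 arrest and 3 of 10 other targets were higher by at least 1, beside 0.809% of 7412 genes, with medians of 1.09, 0.79 and 0.72. After the GC fit the medians over all tested members were 0.78 (arrest), 1.24 (apoptosis) and 0.70 (other targets). The lists were drawn up with earlier results of these libraries known and are not independent evidence of this direction.

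Cdkn1a (ENSMUSG00000023067, plus strand of chromosome 17 from 29090976 to 29100727) encodes p21, the inhibitor of cyclin-dependent kinases through which p53 stops the cell cycle. It had 605 TPM in Tut1 KO, 196 TPM in Trp53 KO, 477 TPM in control and 179 TPM in double KO cells, a difference of 1.62 between the compared libraries. The libraries with intact Trp53 did not overlap those with the Trp53 deletion. The p53 element is a repeat of a decamer with CATG at its middle. The letters CATGNNNNNNCATG, which read the same on both strands, were searched in RefSeq windows (GRCm38.p6). Each window ran from 250 bases before to 50 bases after a transcript start. They stood in 0.712% of 32851 windows and in 0.833% of the 27025 genes with a window. Of the 60 genes of the p53 lists and their regulators that had a window, 1 held them. That gene was Cdkn1a, shown here because it is the most abundant arrest gene past the threshold, with the matched letters in capitals:
Cdkn1a (chr17:29090901-29090974, plus strand): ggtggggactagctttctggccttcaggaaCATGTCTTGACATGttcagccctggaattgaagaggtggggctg
The match begins 48 bases before a transcript start. A match of letters is a description and not a bound site, and the absence of a match says only that these letters are not in the window.

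In the other arrest genes past the threshold the 4 libraries fell into the same pairs as for Cdkn1a. Trp53inp1, which links p53 to autophagy and cell death, had 51.03 TPM in Tut1 KO and 18.6 TPM in Trp53 KO, beside 57.5 TPM in control and 20.8 TPM in double KO cells. Its difference was 1.41, and the control and the Tut1 KO library were near each other. Ccng1 (cyclin G1) had 181 TPM in Tut1 KO and 69.4 TPM in Trp53 KO, beside 208 TPM in control and 85.5 TPM in double KO cells, a difference of 1.37. Gdf15, a secreted stress hormone, had 18.4 TPM in Tut1 KO and 6.87 TPM in Trp53 KO, beside 13.2 TPM in control and 5.67 TPM in double KO cells, a difference of 1.30. Sesn2, an antioxidant and inhibitor of mTORC1, had 71.1 TPM in Tut1 KO and 33.04 TPM in Trp53 KO, beside 59.1 TPM in control and 30.7 TPM in double KO cells, a difference of 1.08. In each of the 4 genes the control and the Tut1 KO library were both above the Trp53 KO and double KO libraries.

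Among the apoptosis genes, the largest differences were in genes of low level. Fas, the death receptor, had 14.4 TPM in Tut1 KO and 1.97 TPM in Trp53 KO, beside 7.92 TPM in control and 4.49 TPM in double KO cells, a difference of 2.38. Perp, a membrane protein induced in p53-dependent cell death, had 12.99 TPM in Tut1 KO and 1.79 TPM in Trp53 KO, beside 4.89 TPM in control and 3.07 TPM in double KO cells, a difference of 2.33. Bbc3, which encodes the BH3-only killer protein PUMA, had 45.8 TPM in Tut1 KO and 12.99 TPM in Trp53 KO, beside 24.3 TPM in control and 11.8 TPM in double KO cells, a difference of 1.74. For Perp and Bbc3 the Tut1 KO library was the highest by a margin that placed the control nearer the Trp53 KO library on the log scale. Phlda3, an inhibitor of Akt signalling, had 186 TPM in Tut1 KO and 62.9 TPM in Trp53 KO, beside 122 TPM in control and 60.6 TPM in double KO cells, a difference of 1.55. Pmaip1, which encodes the BH3-only protein NOXA, had 15.1 TPM in Tut1 KO and 4.99 TPM in Trp53 KO, beside 14.9 TPM in control and 6.79 TPM in double KO cells, a difference of 1.43. In Phlda3 and Pmaip1 the control and Tut1 KO libraries lay above the other two. Dapk1 (1.55), Pidd1 (1.26), Tnfrsf10b (1.22) and Aen (1.15) were also past 1. Bax, the pore-forming effector of the mitochondrial pathway, had 429.5 TPM in Tut1 KO and 211 TPM in Trp53 KO, beside 309 TPM in control and 225 TPM in double KO cells, and its difference of 1.02 became 0.90 after the GC fit. Apaf1, the core of the apoptosome, was an exception at -0.56, with 6.78 TPM against 10.5 TPM in the Tut1 KO and Trp53 KO library. Apaf1 was picked out after its value was seen.

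In the third group, Ak1, a nucleotide kinase, had 129 TPM in Tut1 KO and 29.2 TPM in Trp53 KO, beside 105 TPM in control and 44.1 TPM in double KO cells, a difference of 2.11. Dcxr, a xylulose reductase, had 47.2 TPM in Tut1 KO and 10.3 TPM in Trp53 KO, beside 37.1 TPM in control and 13.6 TPM in double KO cells, a difference of 2.09. Both were low in the libraries labelled with the Trp53 deletion. Eda2r, a death receptor of the TNF receptor family, had 33.5 TPM in Tut1 KO and 12.6 TPM in Trp53 KO, beside 39.1 TPM in control and 12.7 TPM in double KO cells, a difference of 1.34. Rps27l, a ribosomal protein paralog and the most abundant target tested, had 1455 TPM in Tut1 KO and 738 TPM in Trp53 KO, beside 1099.5 TPM in control and 868 TPM in double KO cells. Its difference was 0.98, and 1.14 after the GC fit. The control and the double KO library share no library with the compared pair, and over these 3 groups their own difference (double KO minus control) had medians of -0.53, -0.62 and -0.53, of the opposite sign, with the Trp53 deletion on the first side there.

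**Figure D3:**
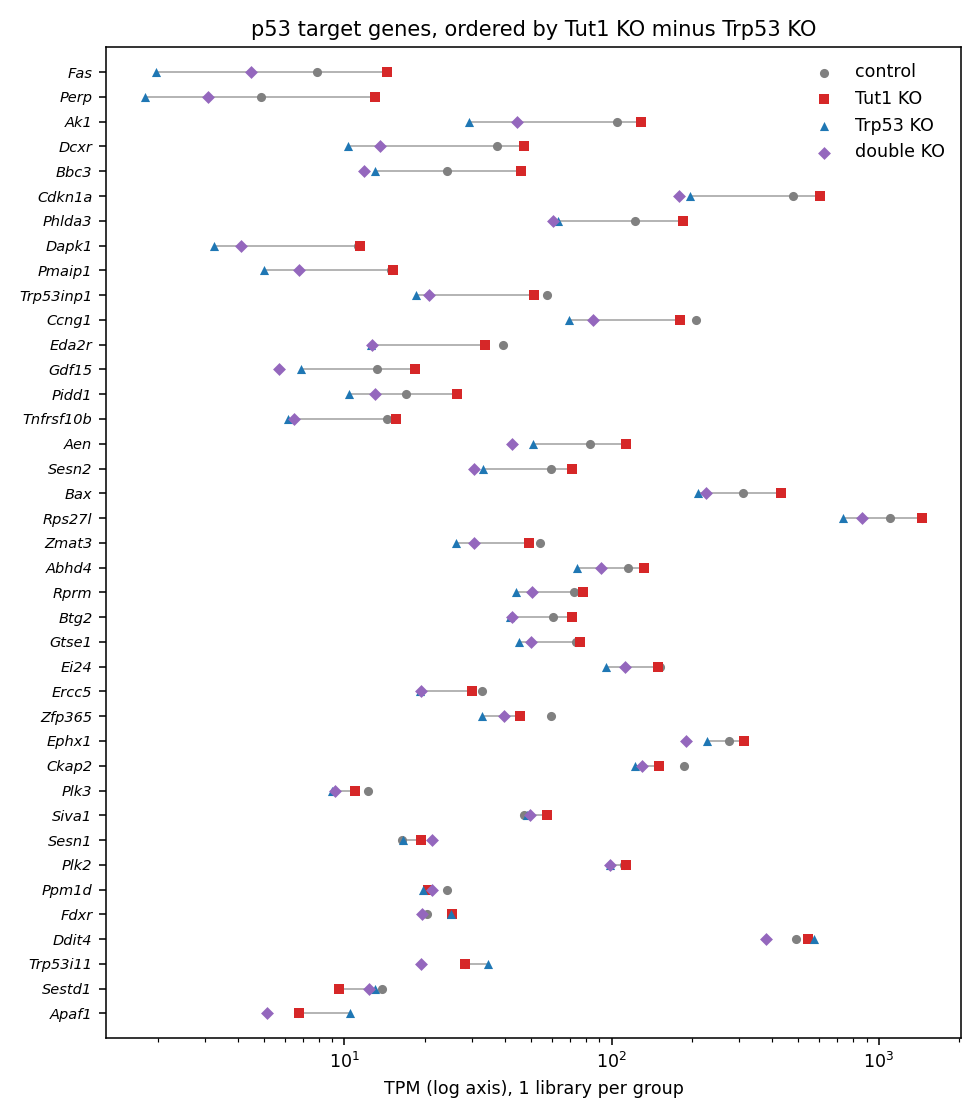
TPM (log axis) of the 39 tested p53 target genes in the 4 libraries, 1 library per group, ordered by the difference Tut1 KO minus Trp53 KO, whose 2 values are joined by a line. Of the 39 genes 35 are higher in the Tut1 KO (red squares) than in the Trp53 KO library (blue triangles), beside 43.4% of all tested genes. In 28 the control (grey circles) lies nearer the Tut1 KO and the double KO (purple diamonds) nearer the Trp53 KO library, beside 14.2%.

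Of 13 tested genes that act on p53, 1 was higher by at least 1 (1.69% of all genes) and 0 lower (1.96%), 8 lay below 0 (56.6%), and the median was -0.21. Rchy1, a ubiquitin ligase for p53 that is itself a p53 target, had 103 TPM in Tut1 KO and 22.7 TPM in Trp53 KO, beside 92.6 TPM in control and 75.5 TPM in double KO cells, a difference of 2.13, with the Trp53 KO library low on its own. Mdm2, the principal ubiquitin ligase for p53 and one of its targets, had 69.6 TPM in Tut1 KO and 38.8 TPM in Trp53 KO, beside 69.1 TPM in control and 43.4 TPM in double KO cells, a difference of 0.83. The libraries with intact Trp53 lay above the other two for Mdm2. Chek1, a kinase of the replication checkpoint, had 17.2 TPM in Tut1 KO and 8.57 TPM in Trp53 KO, beside 12.6 TPM in control and 24.99 TPM in double KO cells, a difference of 0.93 that was 1.13 after the GC fit. Chek2, its counterpart in the response to double strand breaks, was lower in the Tut1 KO library at -0.65.

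Genes of the integrated stress response leaned to the Trp53 KO side. Of the 14 tested, 13 lay below 0 beside 56.6% of all genes, 1 was lower by at least 1 beside 1.96%, and the median was -0.57. After the GC fit the median was -0.43, with 12 of 14 below 0. Ndrg1, which also responds to hypoxia, had 15.1 TPM in Tut1 KO and 32.9 TPM in Trp53 KO, beside 12.9 TPM in control and 18.6 TPM in double KO cells, a difference of -1.07. The amino acid carriers Slc7a1 (-0.87) and Slc7a5 (-0.82) were next. Asns, asparagine synthetase, had 115 TPM in Tut1 KO and 197 TPM in Trp53 KO, beside 141 TPM in control and 179 TPM in double KO cells, a difference of -0.78. For Asns the libraries with intact Trp53 were both below the other two. Atf4 itself, named after its value was seen because the response is defined by it, had 131 TPM in Tut1 KO and 133 TPM in Trp53 KO, beside 131 TPM in control and 230.3 TPM in double KO cells, a difference of -0.02. Its mRNA was thus level between the compared libraries, and ATF4 is controlled in large part at translation, which these data do not measure.

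In serine and one-carbon metabolism, 2 of 11 tested genes were lower by at least 1 (1.96% of all genes) and 0 were higher. Both, Pycr1 and Aldh1l2, reached 10 TPM only in the Trp53 KO library, and of the 9 genes with 10 TPM in both libraries none was past 1 in either direction (0.89% of all such genes were lower by 1) and 8 lay below 0 (56.1%), with a median of -0.38. Pycr1, an enzyme of proline synthesis, had 9.60 TPM in Tut1 KO and 24.7 TPM in Trp53 KO, beside 14.9 TPM in control and 11.03 TPM in double KO cells, a difference of -1.28. Aldh1l2, a mitochondrial folate enzyme, had 9.38 TPM in Tut1 KO and 21.2 TPM in Trp53 KO, beside 14.9 TPM in control and 15.4 TPM in double KO cells, a difference of -1.10. That difference was -1.02 after the GC fit and -0.98 with transcript length fitted as well. The mitochondrial folate enzymes Mthfd1l (-0.95) and Mthfd2 (-0.64) lay on the same side, under the threshold. Of 20 aminoacyl-tRNA synthetases, which charge tRNAs with amino acids, 17 lay below 0 (56.6% of all genes) and none was past 1 in either direction. The median was -0.22, and -0.14 after the GC fit, with 16 below 0 (49.7% of all genes). Cars (-0.65), Iars (-0.52) and Tars (-0.42) were the furthest from 0. Of 21 genes of the unfolded protein response of the endoplasmic reticulum, 1 was lower by at least 1 (1.96% of all genes) and 0 higher, and the median of -0.24 became -0.06 after the GC fit. That gene was Hyou1, a chaperone of the endoplasmic reticulum, with 27.6 TPM in Tut1 KO and 58.5 TPM in Trp53 KO, beside 35.5 TPM in control and 36.03 TPM in double KO cells and a difference of -1.06.

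Promoter windows of these lists were searched for the core of the C/EBP-ATF response element, the composite site bound by ATF4 with a C/EBP partner. The letters were TGATGNAA, on both strands. They stood in 3.97% of the 32851 RefSeq windows, in 4.51% of the 27025 genes with a window and in 2.41% of the 6610 tested genes among them. In the integrated stress response list 6 of the 15 genes with a window out of 20 held them. Of these 6, Asns, Chac1 and Vldlr were among the tested genes (3 of 11 with a window), and Atf3, Slc7a11 and Trib3 were under 10 TPM in both libraries and have no tested difference. In serine and one-carbon metabolism 1 of 10 out of 12 held the letters, and among the synthetases 5 of 13 out of 20, and the genes with a match were tested in both lists. Stretches of 3 genes are shown, 1 from each list among the genes named by rule, since these 3 lay on the Trp53 KO side, with the match in capitals (TTGCATCA is the core on the opposite strand):
Asns (chr6:7693195-7693262, minus strand): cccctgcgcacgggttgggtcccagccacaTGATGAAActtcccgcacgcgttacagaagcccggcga
Pycr1 (chr11:120643814-120643881, minus strand): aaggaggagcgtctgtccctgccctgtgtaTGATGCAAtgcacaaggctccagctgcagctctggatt
Tars (chr15:11399636-11399703, minus strand): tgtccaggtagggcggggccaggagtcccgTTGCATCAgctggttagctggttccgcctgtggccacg
Among genes past the threshold with a window, the letters stood in 4 of 114 higher genes (3.51%) and 5 of 119 lower genes (4.20%).

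No gene of the cholesterol pathway was past 1 in either direction. All 22 tested genes lay below 0, on the Trp53 KO side, beside 56.6% of all genes, with a median of -0.59 and a range from -0.95 to -0.04. After the GC fit all 22 lay below 0, beside 49.7% of all genes, with a median of -0.50. Insig1, the sterol sensor that restrains the pathway and is induced with it, had 120.4 TPM in Tut1 KO and 234 TPM in Trp53 KO, beside 192 TPM in control and 199 TPM in double KO cells, a difference of -0.95. Lss, lanosterol synthase, had 48.4 TPM in Tut1 KO and 84.3 TPM in Trp53 KO, beside 74.4 TPM in control and 85.05 TPM in double KO cells, a difference of -0.79. For both genes the Tut1 KO library was the lowest of the 4. Idi1 and Fdft1, which act earlier, had a different order. Idi1 had 64.9 TPM in Tut1 KO and 115 TPM in Trp53 KO, beside 37.7 TPM in control and 42.4 TPM in double KO cells, a difference of -0.81, with the Trp53 KO library the highest. Fdft1, squalene synthase, had 109 TPM in Tut1 KO and 188 TPM in Trp53 KO, beside 78.2 TPM in control and 88.9 TPM in double KO cells, a difference of -0.78, again with the Trp53 KO library highest. In 16 of the 22 genes the Tut1 KO library stood apart, meaning that the control and the double KO both lay nearer the Trp53 KO library, as they did in 46.1% of all tested genes.

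The list of fatty acid enzymes held both the highest and the lowest difference of any list member. Of 15 tested, 1 was higher (1.69% of all genes) and 2 were lower by at least 1 (1.96%), and 13 lay below 0 (56.6%) with a median of -0.46. Scd2 (ENSMUSG00000025203, plus strand of chromosome 19 from 44293674 to 44306864), the stearoyl-CoA desaturase of brain, had 720.4 TPM in Tut1 KO, 81.8 TPM in Trp53 KO, 64.2 TPM in control and 47.3 TPM in double KO cells. The Tut1 KO library stood above the other 3, and the difference of 3.12 from the Trp53 KO library is a ratio of 8.72 with 1 TPM added to each. Its relative Scd1 had 144 TPM in Tut1 KO and 272 TPM in Trp53 KO, beside 198 TPM in control and 270.4 TPM in double KO cells, a difference of -0.91 in the other direction. Elovl2 (ENSMUSG00000021364, minus strand of chromosome 13 from 41182381 to 41220405), an elongase of long polyunsaturated fatty acids, had 0.43 TPM in Tut1 KO, 23.4 TPM in Trp53 KO, 27.7 TPM in control and 2.37 TPM in double KO cells. It was low in both libraries labelled with the Tut1 deletion and under 10 TPM in Tut1 KO, and the difference was -4.09. Acsl3, an acyl-CoA synthetase, had 60.4 TPM in Tut1 KO and 123 TPM in Trp53 KO, beside 103 TPM in control and 123 TPM in double KO cells, and its difference of -1.02 became -0.86 after the GC fit. Scd2 and Acsl3 share exon bases with another gene, and the sums with these partners were 3.12 and -0.997.

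Bnip3 and Vegfa were the genes of the glycolysis and hypoxia list past 1, both lower in the Tut1 KO library. Of 23 tested, these 2 were lower by at least 1, beside 1.96% of all genes, 0 were higher, and 21 lay below 0, beside 56.6% of all genes, with a median of -0.48 (-0.50 after the GC fit). Bnip3, a mitophagy receptor induced by HIF-1, had 162 TPM in Tut1 KO and 374 TPM in Trp53 KO, beside 239 TPM in control and 212 TPM in double KO cells, a difference of -1.20. Vegfa, the angiogenic growth factor, had 162 TPM in Tut1 KO and 352 TPM in Trp53 KO, beside 257 TPM in control and 243 TPM in double KO cells, a difference of -1.11. Slc2a3, a glucose carrier, had 47.99 TPM in Tut1 KO and 93.95 TPM in Trp53 KO, beside 61.6 TPM in control and 60.4 TPM in double KO cells, a difference of -0.95, and Adm, the hypoxia-induced peptide adrenomedullin, had a difference of -0.89. In each of Bnip3, Vegfa, Slc2a3 and Adm the Trp53 KO library was the highest and the Tut1 KO library the lowest. In 14 of the 23 genes the Trp53 KO library stood apart, with the control and the double KO both nearer the Tut1 KO library, as in 23% of all tested genes. Oxygen and cell density of the cultures were not given in the sources used here.

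No gene of mitosis was past 1 in either direction. All 34 lay below 0, beside 56.6% of all genes, from -0.79 to -0.02 with a median of -0.39. After the GC fit the median was -0.26 and 33 lay below 0, beside 49.7% of all genes. Anln, the contractile ring protein anillin, had 17.8 TPM in Tut1 KO and 31.4 TPM in Trp53 KO, beside 32.4 TPM in control and 29.7 TPM in double KO cells, a difference of -0.79. Bub1, a spindle checkpoint kinase, had 31.99 TPM in Tut1 KO and 53.8 TPM in Trp53 KO, beside 50.1 TPM in control and 47.8 TPM in double KO cells, a difference of -0.73. For both, the Tut1 KO library was the lowest and the other 3 lay close together, and it stood apart in 26 of the 34 genes, beside 46.1% of all tested genes. The kinesins Kif23 (-0.64) and Kif11 (-0.59) lay on the same side. In bulk RNA, fewer cells of a kind and less RNA per cell cannot be told apart. Of 32 replication genes, 1 was lower by at least 1 (1.96% of all genes) and 0 higher, 27 lay below 0 (56.6%) and the median was -0.20. Fen1, the nuclease that trims Okazaki fragments, had 16.4 TPM in Tut1 KO and 42.2 TPM in Trp53 KO, beside 18.7 TPM in control and 48.2 TPM in double KO cells, a difference of -1.31. Its levels separated by the Trp53 label, with the deleted libraries high. Of 23 repair genes, 22 lay below 0 (56.6% of all genes) with a median of -0.24, and 1 was higher by at least 1 (1.69% of all genes) and 0 lower. That gene was Rpa1, a subunit of the single-strand DNA binding complex, with 51.6 TPM in Tut1 KO and 23.3 TPM in Trp53 KO, beside 76.7 TPM in control and 56.9 TPM in double KO cells and a difference of 1.11. The Trp53 KO library was low on its own.

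Transcripts of the splicing machinery, of which U6 is a part, differed little. None of 40 core spliceosome genes was past 1 in either direction, 28 lay above 0 (43.4% of all genes) and the median was 0.15 (0.17 after the GC fit). Snrnp200, the helicase that unwinds U4 from U6, had 74.2 TPM in Tut1 KO and 41.99 TPM in Trp53 KO, beside 45.2 TPM in control and 79.7 TPM in double KO cells, a difference of 0.81. Prpf8, the scaffold of the catalytic core, had 102 TPM in Tut1 KO and 67.7 TPM in Trp53 KO, beside 71.7 TPM in control and 119 TPM in double KO cells, a difference of 0.59. Both libraries labelled with the Tut1 deletion were above both without it in these genes. By the nearer library, 16 of the 40 split by the Tut1 label, with the control on the Trp53 KO side and the double KO on the Tut1 KO side, beside 16.6% of all tested genes. Of 17 proteins of the U6 particle, the Lsm ring and the U4/U6 complex, none was past 1, and the median was 0.06 (0.21 after the GC fit). Prpf3, a protein of the U4/U6 particle, had 54.4 TPM in Tut1 KO and 30.4 TPM in Trp53 KO, beside 38.9 TPM in control and 64.5 TPM in double KO cells, a difference of 0.82. Ppih, its partner, differed by 0.70, Lsm7 by 0.69 and Lsm6 by 0.52. Prpf3, Ppih, Lsm7 and Lsm6 also split by the Tut1 label.

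Regulators of splice site choice lay on the other side before the fit. Of 38 SR and hnRNP genes, 31 lay below 0 (56.6% of all genes) with a median of -0.16, which became -0.01 after the GC fit, and none was past 1. Hnrnpu, which binds nuclear RNA and chromatin, had 499 TPM in Tut1 KO and 287 TPM in Trp53 KO, beside 904 TPM in control and 304 TPM in double KO cells, a difference of 0.80. Srsf10, a splicing factor that is regulated by phosphorylation, had 44.5 TPM in Tut1 KO and 70.8 TPM in Trp53 KO, beside 78.9 TPM in control and 62.3 TPM in double KO cells, a difference of -0.66. Of the 5 genes that the study names for altered splicing, none was past 1 and the median was -0.36 (-0.05 after the fit); that choice was not independent of cells of this kind. Pnisr, a splicing-related SR-rich protein, had 35.95 TPM in Tut1 KO and 64.1 TPM in Trp53 KO, beside 67.4 TPM in control and 34.8 TPM in double KO cells, a difference of -0.82, with both libraries labelled with the Tut1 deletion low. Prpf4b (-0.36, and -0.16 after the GC fit) and Ube2v2 (-0.38, and -0.05 after it) were nearer to 0. Isoforms were not analysed here. Among 8 terminal nucleotidyltransferases and U6-trimming enzymes, Tut1 itself was the only one past 1, beside 3.65% of all genes. Usb1, the nuclease that trims the U6 tail, had 22.5 TPM in Tut1 KO and 29.97 TPM in Trp53 KO, beside 24.4 TPM in control and 23.3 TPM in double KO cells, a difference of -0.40. The median of 26 RNA decay genes was -0.09 and none was past 1.

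**Figure D4:**
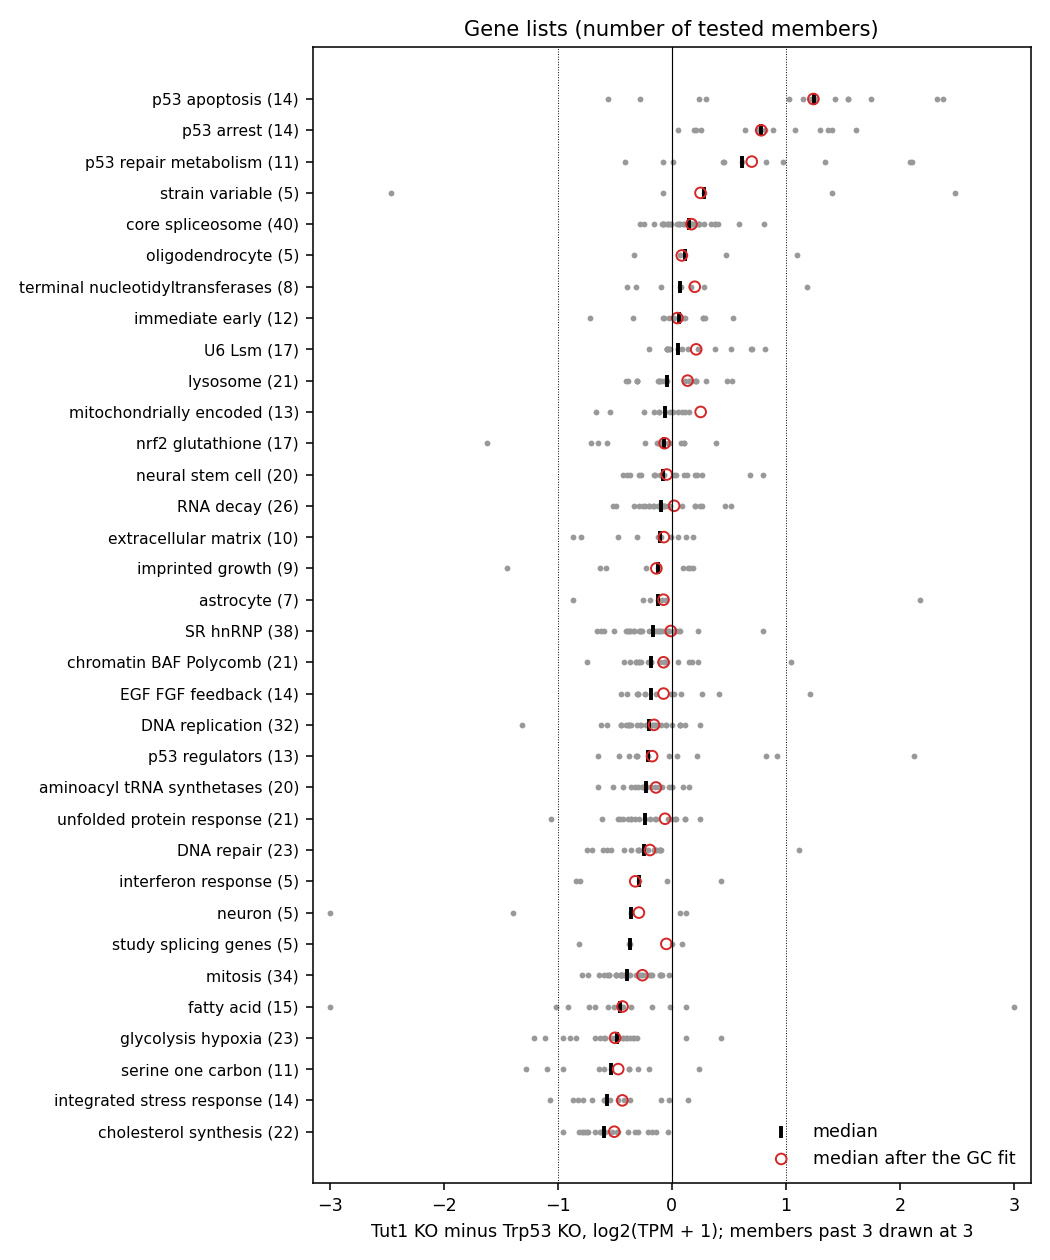
Differences in log2(TPM + 1), Tut1 KO minus Trp53 KO, of the tested members of each gene list with at least 5 of them (grey points, number in brackets), with the median (black bar) and the median after the GC fit (red circle). The 3 p53 target lists stand at the top with medians from 0.61 to 1.24, and the lists of cholesterol synthesis, the integrated stress response, serine and one-carbon metabolism and glycolysis at the bottom with medians from -0.59 to -0.48.

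Apoe, Bcas1, Elavl4 and Snap25 were the markers of neurosphere cell types past 1. Of 20 tested neural stem cell markers none was past 1, and the median was -0.08. Hopx, an outer radial glia marker, had 49.7 TPM in Tut1 KO and 28.1 TPM in Trp53 KO, beside 53.9 TPM in control and 40.6 TPM in double KO cells, a difference of 0.80. Hes5, a Notch target, had 59.8 TPM in Tut1 KO and 36.8 TPM in Trp53 KO, beside 39.6 TPM in control and 66.5 TPM in double KO cells, a difference of 0.68. The astrocyte list had 1 of 7 higher by at least 1, beside 1.69% of all genes, and 0 lower, and a median of -0.13. Apoe, the lipid carrier of astrocytes and microglia, had 96.4 TPM in Tut1 KO and 20.6 TPM in Trp53 KO, beside 37.6 TPM in control and 32.5 TPM in double KO cells, a difference of 2.17. The Tut1 KO library was the highest for Apoe, whereas Sparcl1, another astrocyte gene, was highest in the Trp53 KO library with 139 TPM in Tut1 KO and 254 TPM in Trp53 KO, beside 92.8 TPM in control and 142 TPM in double KO cells, a difference of -0.87. Gfap was under 1 TPM in all 4 libraries. Over all 14 astrocyte markers, TPM summed to 728 in the Tut1 KO and 808 in the Trp53 KO library.

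Bcas1, a marker of newly formed oligodendrocytes, was the only one of 5 tested oligodendrocyte markers past 1 (3.65% of all genes), with 60.8 TPM in Tut1 KO and 27.9 TPM in Trp53 KO, beside 24.5 TPM in control and 49.3 TPM in double KO cells and a difference of 1.10. The list had a median of 0.12, and its 12 markers summed to 1231 TPM in Tut1 KO and 1122 TPM in Trp53 KO cells. Most of these sums came from Olig1 (942 TPM and 895 TPM). Of 5 tested neuronal markers, 2 were lower by at least 1, beside 1.96% of all genes, and 0 higher. Their median was -0.36 (-0.29 after the GC fit). Both lower genes reached 10 TPM only in the Trp53 KO library, 5 of the 24 markers were tested at all, and the 3 with 10 TPM in both libraries had a median of 0.07 with none past 1. Elavl4, a neuronal RNA-binding protein, had 0.37 TPM in Tut1 KO, 16.9 TPM in Trp53 KO, 19.8 TPM in control and 21.98 TPM in double KO cells, a difference of -3.71 in which the Tut1 KO library stood alone. Snap25, a protein of synaptic vesicle fusion, had 3.38 TPM in Tut1 KO and 10.5 TPM in Trp53 KO, beside 9.65 TPM in control and 6.06 TPM in double KO cells, a difference of -1.39. Tubb3, neuronal tubulin, was level at 0.12, and the 24 neuronal markers summed to 721 TPM in Tut1 KO and 758 TPM in Trp53 KO cells. Most of these sums came from Gap43 (530 TPM and 504 TPM) and Map2 (141 TPM and 181 TPM). No gene of the microglial or the vascular and fibroblast list reached 10 TPM in either library.

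Receptors and feedback genes of the EGF and FGF that sustain the culture had a median of -0.19 over 14 genes (-0.07 after the GC fit). Of these genes 1 was past 1 on the higher side (1.69% of all genes) and 0 on the lower side (1.96%). That one was Fgfr3, a receptor of radial glia, with 22.2 TPM in Tut1 KO and 9.04 TPM in Trp53 KO, beside 14.1 TPM in control and 16.6 TPM in double KO cells and a difference of 1.21. Of 17 NRF2 and glutathione genes, Gclm was the only one past 1, beside 3.65% of all genes. It encodes a subunit of the first enzyme of glutathione synthesis and had 6.70 TPM in Tut1 KO and 22.7 TPM in Trp53 KO, beside 18.5 TPM in control and 11.2 TPM in double KO cells, a difference of -1.62. Both libraries labelled with the Tut1 deletion were the lower ones for Gclm. Of 21 BAF and Polycomb genes, Jarid2, a cofactor of the PRC2 complex, was the only one past 1 (3.65% of all genes), with 12.3 TPM in Tut1 KO and 5.43 TPM in Trp53 KO, beside 15.04 TPM in control and 6.91 TPM in double KO cells and a difference of 1.05. Among 9 imprinted genes, Grb10, an adaptor that restrains growth, had 6.21 TPM in Tut1 KO and 18.6 TPM in Trp53 KO, beside 12.02 TPM in control and 14.4 TPM in double KO cells, a difference of -1.44, and was the only one past 1, beside 3.65% of all genes. Fgfr3, Gclm, Jarid2 and Grb10 each reached 10 TPM in only 1 of the 2 libraries. The 13 protein-coding genes of the mitochondrial genome had a median of -0.06, which became 0.25 after the GC fit, and none was past 1.

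The largest differences of single genes were mostly between a library above 10 TPM and one near 0. Of the 298 genes past the threshold, 9 had less than 1 TPM in the Tut1 KO and 8 less than 1 TPM in the Trp53 KO library. Genes that share exon bases with another gene on the same strand made up 47 of the 298 (15.8%) and 714 of all 8159 (8.75%), and the way their reads were divided was not stated. The difference in the summed TPM of the overlapping IDs is given where it lay more than 0.1 from that of the gene alone.

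On the higher side, the largest difference was that of a Septin2 ID (ENSMUSG00000116048), with 221 TPM in Tut1 KO and 0 TPM in Trp53 KO, beside 4.10 TPM in control and 288 TPM in double KO cells, at 7.79. The other Septin2 ID (ENSMUSG00000026276) was among the largest on the lower side with 21.997 TPM in Tut1 KO and 249 TPM in Trp53 KO, beside 265 TPM in control and 19.7 TPM in double KO cells, at -3.44. The sum of both IDs differed by -0.04, so the 2 IDs changed places between libraries while their total stayed close. Adnp, a homeodomain protein of brain development, had 44.2 TPM in Tut1 KO and 0.05 TPM in Trp53 KO, beside 62.8 TPM in control and 35.6 TPM in double KO cells, at 5.43, and the sum with the predicted gene it overlaps differed by -0.25. Commd5 had 21.5 TPM in Tut1 KO and 2.33 TPM in Trp53 KO, beside 17.5 TPM in control and 19.1 TPM in double KO cells, at 2.76, and 0.53 in the sum with its partner. Gdf1, a TGF-beta family ligand that shares a transcript with Cers1, had 20.99 TPM in Tut1 KO and 0.13 TPM in Trp53 KO, beside 0.27 TPM in control and 0.16 TPM in double KO cells, at 4.28, and 0.91 in the sum. All 4 differences on the higher side were thus below 1 when IDs were summed.

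A further 7 large differences on the higher side were in genes with no shared exons. Rlim, a ubiquitin ligase that promotes X inactivation, had 17.7 TPM in Tut1 KO and 0.02 TPM in Trp53 KO, beside 20.95 TPM in control and 19.96 TPM in double KO cells, at 4.20. Taok1, a kinase of the MAPK and microtubule pathways, had 17.3 TPM in Tut1 KO and 0.20 TPM in Trp53 KO, beside 24.3 TPM in control and 21.9 TPM in double KO cells, at 3.93. For both genes the Trp53 KO library alone was near 0. Zscan26, a zinc finger protein, had 16.2 TPM in Tut1 KO and 0.20 TPM in Trp53 KO, beside 17.96 TPM in control and 1.75 TPM in double KO cells, at 3.85. Rc3h2, an RNA-binding protein of the roquin family, had 10.9 TPM in Tut1 KO and 0.32 TPM in Trp53 KO, beside 5.83 TPM in control and 0.68 TPM in double KO cells, at 3.17. Gatad2b, a subunit of the NuRD complex, had 26.4 TPM in Tut1 KO and 2.52 TPM in Trp53 KO, beside 31.4 TPM in control and 3.11 TPM in double KO cells, at 2.96. Slc19a2, a thiamine carrier, had 22.8 TPM in Tut1 KO and 2.24 TPM in Trp53 KO, beside 22.0002 TPM in control and 5.56 TPM in double KO cells, at 2.88. In Zscan26, Rc3h2, Gatad2b and Slc19a2 the double KO was low with the Trp53 KO library. Samd8, a sphingomyelin synthase-related enzyme, was high in both libraries labelled with the Tut1 deletion, with 17.9 TPM in Tut1 KO and 0.64 TPM in Trp53 KO, beside 2.45 TPM in control and 21.9 TPM in double KO cells, at 3.53.

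On the lower side, H1f10, a linker histone, had 0 TPM in Tut1 KO, 97.1 TPM in Trp53 KO, 91.3 TPM in control and 73.8 TPM in double KO cells, at -6.62, and -6.30 in the sum with its partner. Pcdhga9, one of the clustered protocadherins that share their last exons, had 1.85 TPM in Tut1 KO and 213 TPM in Trp53 KO, beside 0.54 TPM in control and 0.39 TPM in double KO cells, at -6.23. The 26 overlapping IDs of that cluster summed to 89.8 TPM in Tut1 KO and 297 TPM in Trp53 KO cells, a difference of -1.72. The control had 352 TPM and the double KO 314 TPM in that sum, so the Tut1 KO library was the low one. Cldn12, a claudin of cell junctions, had 0.01 TPM in Tut1 KO and 15.3 TPM in Trp53 KO, beside 15.2 TPM in control and 16.4 TPM in double KO cells, at -4.01. Gopc, a Golgi trafficking protein, had 0.31 TPM in Tut1 KO and 16.6 TPM in Trp53 KO, beside 18.5 TPM in control and 15.96 TPM in double KO cells, at -3.75. Fignl1, an ATPase of recombination repair, had 2.43 TPM in Tut1 KO and 33.8 TPM in Trp53 KO, beside 35.9 TPM in control and 34.6 TPM in double KO cells, at -3.34. Rell1 (-3.12), the translation factor subunit Eif3j2 (-3.01, and -2.87 in the sum with its partner) and the transcription factor Ets1 (-2.85) followed. In each of Cldn12, Gopc, Fignl1, Rell1, Eif3j2 and Ets1 the Tut1 KO library alone was low. Aak1, a kinase of clathrin-mediated endocytosis, was low in both libraries labelled with the Tut1 deletion, with 1.64 TPM in Tut1 KO and 18.4 TPM in Trp53 KO, beside 13.4 TPM in control and 4.40 TPM in double KO cells, at -2.88.

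The other 2 libraries place each of the 298 genes. A gene was said to split by the Trp53 label where the control lay nearer the Tut1 KO and the double KO nearer the Trp53 KO library, to split by the Tut1 label in the reverse case, and otherwise to set the Tut1 KO or the Trp53 KO library apart. By this rule 75 genes split by the Trp53 label, 53 of them higher and 22 lower in the Tut1 KO library. A further 55 split by the Tut1 label (22 higher, 33 lower), 90 set the Tut1 KO library apart (22 higher, 68 lower) and 78 set the Trp53 KO library apart (41 higher, 37 lower). Over all 8159 genes the shares of the 4 classes were 14.2%, 16.6%, 46.1% and 23%, against 25.2%, 18.5%, 30.2% and 26.2% of the 298. With the requirement that the control and the double KO each lie past the midpoint by at least 0.25 of the difference, 167 genes were placed, 38, 21, 58 and 50 in the same order. Each class rests on 1 library a group, and the treatment of the control and the sex-linked transcripts differ within it.

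**Figure D5:**
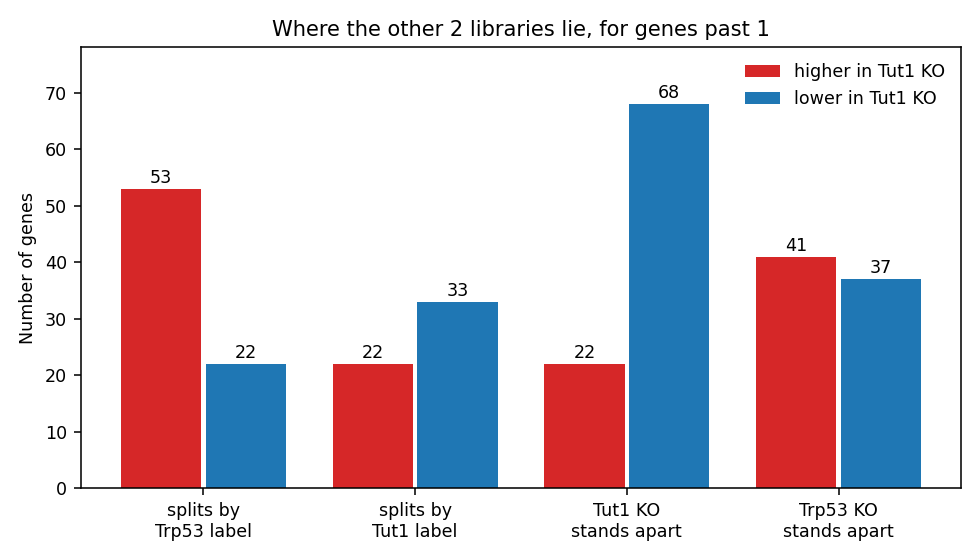
Number of genes past 1 (y axis) in each of the 4 classes set by where the control and the double KO library lie, split into genes higher (red) and lower (blue) in the Tut1 KO library. Higher genes are most numerous among those that split by the Trp53 label (53) and lower genes among those where the Tut1 KO library stands apart (68).

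Of the 18 p53 target genes past 1, 16 split by the Trp53 label, beside 38.4% of the 138 genes past 1 on the higher side, and the class also held genes lower in the Tut1 KO library. Cep43, a centrosome protein, had 2.47 TPM in Tut1 KO and 22.7 TPM in Trp53 KO, beside 4.48 TPM in control and 24.8 TPM in double KO cells, a difference of -2.77. Ppig, a cyclophilin that binds splicing factors, had 4.001 TPM in Tut1 KO and 28.7 TPM in Trp53 KO, beside 7.33 TPM in control and 36.2 TPM in double KO cells, a difference of -2.57. Pygo2, a cofactor of Wnt signalling, had 4.67 TPM in Tut1 KO and 30.3 TPM in Trp53 KO, beside 4.996 TPM in control and 20.6 TPM in double KO cells, a difference of -2.46. Dcbld2 had 1.76 TPM in Tut1 KO and 12.5 TPM in Trp53 KO, beside 3.14 TPM in control and 14.1 TPM in double KO cells, a difference of -2.29. In these genes both libraries with the Trp53 deletion were above both without it. By construction of the class, double KO minus control had the opposite sign in all 75, and it was past 1 in 47.

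In the class that splits by the Tut1 label, double KO minus control had the same sign in all 55, again by construction, and was past 1 in 29. Ctdsp2, a phosphatase that holds miR-26a-2 in an intron, had 53.9 TPM in Tut1 KO and 8.21 TPM in Trp53 KO, beside 8.92 TPM in control and 59.8 TPM in double KO cells, a difference of 2.58. P2rx7, an ATP-gated channel, had 35.2 TPM in Tut1 KO and 5.47 TPM in Trp53 KO, beside 6.88 TPM in control and 19.4 TPM in double KO cells, a difference of 2.49. Wdfy1, an endosomal adaptor, had 2.61 TPM in Tut1 KO and 18.9 TPM in Trp53 KO, beside 11.8 TPM in control and 3.07 TPM in double KO cells, a difference of -2.46 in the other direction. Nnt, the mitochondrial transhydrogenase that is defective in C57BL/6J mice, had 20.3 TPM in Tut1 KO and 7.06 TPM in Trp53 KO, beside 6.32 TPM in control and 26.2 TPM in double KO cells, a difference of 1.40. P2rx7, Wdfy1 and Nnt belong to a list of genes known to vary between inbred mouse strains, of which 5 were tested, 2 were higher (1.69% of all genes) and 1 was lower by at least 1 (1.96%). Each of the 3 reached 10 TPM in only 1 of the 2 libraries. All 3 split by the Tut1 label, and the part of strain background in this class was not tested.

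Where the Trp53 KO library stood apart, Prrc2b, an RNA-binding protein, had 5.47 TPM in Tut1 KO and 36.5 TPM in Trp53 KO, beside 6.81 TPM in control and 8.94 TPM in double KO cells, a difference of -2.54. Sar1a, the GTPase of COPII vesicles, had 21.7 TPM in Tut1 KO and 116 TPM in Trp53 KO, beside 27.3 TPM in control and 24.2 TPM in double KO cells, a difference of -2.36. Golph3l, a Golgi protein, had 1.41 TPM in Tut1 KO and 11.4 TPM in Trp53 KO, beside 2.59 TPM in control and 1.31 TPM in double KO cells, a difference of -2.36. The Trp53 KO library alone was high in these genes. Where the Tut1 KO library stood apart, Shroom2, an actin-binding protein of epithelia, had 10.6 TPM in Tut1 KO and 1.13 TPM in Trp53 KO, beside 2.36 TPM in control and 0.34 TPM in double KO cells, a difference of 2.44, and was highest there.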

How the data were processed

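RNA was sequenced from 4 mouse neural stem cell cultures, 1 library per group, and the authors deposited one table of TPM for 55487 gene IDs. TPM divides reads by transcript length and by library total, so it keeps no depth and a change in abundant genes shifts all others. The submitters' processing notes name Trimmomatic, HISAT2, StringTie and mm10, without versions or roles. The labels name a stranded short-read mRNA kit and the series text long reads, so the platform behind the values was not settled. Columns were matched to samples by the library names in the labels, and 0 columns were left unmapped.

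Differences were computed as log2(TPM + 1), which understates changes of low genes, with a minimum of 10 TPM in either library and a threshold of 1. GC content, length, coordinates and overlapping exons came from GENCODE M21 (GRCm38), in which 55227 IDs were found. A quadratic fit on GC content was subtracted for the values given after the GC fit. For 36 lists of 752 genes (744 found), members at or past 1 and medians were counted beside those of all tested genes. The members and lists were chosen with earlier results of these data known. Named genes were Tut1, Trp53, the 12 largest changes in each direction that stayed past 1 after the GC fit, the 4 largest in each direction per position class, up to 4 list members furthest from 0 and any member past 1. Symbols of predicted genes were not named. Cell type markers with no place in that rule (Fabp7, Sox2, Emx1, Emx2 and Gfap) are given as a check of the label. Gap43 and Olig1 are given because they dominate the sums of their lists. Promoter windows came from RefSeq (GRCm38.p6). Alternatives covered the pseudocount (0.1 or 5), the TPM minimum, scaling, removal of 458 mitochondrially encoded and ribosomal protein gene IDs, GC and length, shared exons, a 1.5-fold threshold, every biotype and a margin on the position classes. The script was tested on simulated libraries. Scripts ran in Python 3.11.15 with pandas 2.3.3 and numpy 2.4.6, and figures were drawn with matplotlib 3.10.9.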

Additional observations from a re-analysis of the deposited data

How the results depend on the processing

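The main limits are 1 library a side, an unknown depth and a quantifier that divided reads between overlapping genes in a way not stated. No paired analysis was possible because each group has 1 library, and for the same reason no replicate could be left out. No named gene past the threshold changed sign in an alternative that gave it a value. The alternative without shared exons left such genes out and did not recompute them. In the sums over overlapping IDs, Adnp (-0.25) and the Septin2 ID that was high in Tut1 KO (-0.04) lay on the other side of 0. The counts of 138 higher and 160 lower genes stayed within 1.5 times under a pseudocount of 0.1, both rescalings, both composition fits, leaving out ribosomal protein and mitochondrially encoded genes, leaving out genes with shared exons and inclusion of every biotype. A pseudocount of 5 gave 106 lower genes. A minimum of 1 TPM, or none, gave 227 higher and 246 lower genes, a minimum of 10 TPM in both libraries 60 and 66, and a 1.5-fold threshold 343 and 494. Of the 73 named genes past 1, 22 had a value in all 13 alternatives, and 18 of these stayed past the threshold in each. The other 51 had no value with a minimum of 10 TPM in both libraries (46 genes) or without shared exons (17 genes), and 42 of them stayed past it in the alternatives that gave a value. A pseudocount of 5 took 12 of the 73 below it.

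Of 441 recomputed list medians, 10 moved by more than 0.305. The median of the strain-variable list, from 5 genes, became -0.113 with a minimum of 1 TPM, -0.079 with none, with 10 TPM in both libraries or without shared exons, and -0.062 without mitochondrially encoded and ribosomal protein genes. That of the neuronal list became 0.072 with 10 TPM in both libraries, and that of the oligodendrocyte list 0.495 without mitochondrially encoded and ribosomal protein genes. The genes named by the study for splicing went to -0.048 with GC content and to -0.041 with GC content and length fitted, and the mitochondrially encoded genes to 0.253 with GC content fitted. Medians of the lysosomal, RNA decay, immediate early, neural stem cell and terminal nucleotidyltransferase lists lay within 0.1 of 0 and changed sign under at least 1 alternative. With the margin on position, the classes held 38 genes by Trp53 label, 21 by Tut1 label, 58 with Tut1 KO apart and 50 with Trp53 KO apart. Restricting the classes to 240 genes with no shared exons and at least 1 TPM in both libraries, chosen after seeing the data, gave 67, 39, 73 and 61.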

Other observations

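None of 21 lysosomal genes was at or past 1 in either direction, and the furthest from 0 were Atp6v0d1 (0.53), a subunit of the proton pump, and Ctsd (0.48), the protease cathepsin D. Of 12 immediate early genes none was past 1, with Ier3 at -0.72 and Jund at 0.53 as the extremes. Fos, Egr1 and Arc were not named by rule and lay between them. Only 5 of 31 interferon response genes reached 10 TPM, and 4 of them lay below 0 with a median of -0.28 (-0.32 after the GC fit, with 3 below 0). The class I histocompatibility genes H2-K1 (-0.84, 48.9 TPM in Tut1 KO and 88.2 TPM in Trp53 KO, beside 55.9 TPM in control and 69.5 TPM in double KO cells) and H2-D1 (-0.81) were on the Trp53 KO side, and the antiviral membrane protein Ifitm3 (0.43) on the Tut1 KO side.

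Of 10 extracellular matrix genes none was past 1 and the median was -0.11. Fn1, fibronectin, had 7.23 TPM in Tut1 KO and 14.02 TPM in Trp53 KO, beside 6.97 TPM in control and 8.69 TPM in double KO cells, a difference of -0.87. Agrn, the proteoglycan agrin, had 37.9 TPM in Tut1 KO and 66.4 TPM in Trp53 KO, beside 63.2 TPM in control and 55.2 TPM in double KO cells, a difference of -0.79. The Trp53 KO library was the highest for Fn1, and the Tut1 KO library the lowest for Agrn.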
